A study of Mus musculus with 16 samples.

Results

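The genes described are 10 members of the pathways by which cells show peptides to T cells, chosen by symbol from the 17951 genes of the deposited table. All 10 were present. 4 belong to the class I pathway (H2-K1, H2-D1, B2m and Tap1) and 6 to the class II pathway (H2-Aa, H2-Ab1, H2-Eb1, Cd74, Ciita and H2-DMa). They were followed through 16 RNA libraries of Cd11b+ Cd45+ microglia from brain, the resident phagocytes of that tissue, which were sorted by their fluorescence for Methoxy-X04 (Me-X04), a dye that enters the brain and binds amyloid β deposits. The 7 WT libraries came from non-transgenic mice injected with the dye. They are labelled Me-X04 neg, and the labels put the age of the mice at 2 months. The 5xFAD mice (TG), a transgenic line that deposits amyloid β in the brain, were 6 months old by the labels and gave 5 libraries of TG Me-X04- and 4 of TG Me-X04+ microglia, that is, cells without and with the dye. The labels give WT mice the same strain name, 5xFAD. By their animal labels, the 2 sorts with 1 number came from a single TG mouse, and TG Me-X04- replicate 5 has no TG Me-X04+ partner. The WT mice being younger by the labels, effects of age and genotype cannot be told apart wherever WT enters (the study's methods give other ages).

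Class I molecules are present on nearly all nucleated cells and display peptides cut from proteins made inside the cell. Their heavy chains (here H2-K1 and H2-D1) pair with β2-microglobulin and are loaded with peptides pumped into the endoplasmic reticulum by the TAP transporter. Class II molecules are αβ dimers (here H2-Aa with H2-Ab1, and H2-Eb1 as the β chain of a second isotype), display peptides from material taken up by the cell, and belong mainly to professional antigen-presenting cells. The invariant chain Cd74 guides them to endosomes, the H2-DM dimer exchanges its remnant for peptide, and Ciita is the coactivator that most class II transcription depends on. Microglia in a healthy brain are known for low class II levels.

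Promoter sequence of members from both classes is shown because the comparisons turn on how the classes moved relative to each other, and because known elements of MHC promoters can be looked for in it. RefSeq windows on GRCm38.p6 matched 7 of the 10 members. The 250 bases before the start are printed 5′ to 3′ on the strand of the gene, with the letters of any motif searched for in capitals. H2-K1 is shown at chr17:34000348-34000597 on the minus strand and B2m at chr2:122147437-122147686 on the plus strand for class I, and H2-Aa at chr17:34287824-34288073 on the minus strand and H2-Eb1 at chr17:34305617-34305866 on the plus strand for class II.
H2-K1: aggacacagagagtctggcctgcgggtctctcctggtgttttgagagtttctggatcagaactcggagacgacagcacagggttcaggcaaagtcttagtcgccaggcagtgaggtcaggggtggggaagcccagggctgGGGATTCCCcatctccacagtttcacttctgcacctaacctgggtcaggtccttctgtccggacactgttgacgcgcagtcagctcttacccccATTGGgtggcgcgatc
B2m: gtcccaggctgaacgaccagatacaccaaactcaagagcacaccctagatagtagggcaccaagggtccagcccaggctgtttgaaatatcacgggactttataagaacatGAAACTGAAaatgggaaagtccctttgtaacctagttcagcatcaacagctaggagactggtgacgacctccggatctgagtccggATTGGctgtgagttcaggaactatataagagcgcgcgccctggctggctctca
H2-Aa: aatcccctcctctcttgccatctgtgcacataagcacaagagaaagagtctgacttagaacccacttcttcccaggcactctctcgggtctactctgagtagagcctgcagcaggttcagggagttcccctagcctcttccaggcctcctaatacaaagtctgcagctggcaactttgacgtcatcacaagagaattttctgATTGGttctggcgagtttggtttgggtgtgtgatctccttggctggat
H2-Eb1: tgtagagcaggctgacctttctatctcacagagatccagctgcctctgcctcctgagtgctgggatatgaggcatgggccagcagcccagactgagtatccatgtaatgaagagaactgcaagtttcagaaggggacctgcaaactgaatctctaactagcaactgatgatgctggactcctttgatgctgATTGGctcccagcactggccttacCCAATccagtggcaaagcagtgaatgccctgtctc
The Y box of class II promoters (ATTGG, the inverse of CCAAT) was found on either strand in all 7 members with a window (H2-K1 and H2-DMa have several windows, and 1 of those of H2-DMa lacked it), and in 33.8% of the 32851 windows of all genes. A κB motif (GGGATTCCC) was found only in H2-K1 and H2-D1 among these 7, and in 0.301% of all windows. An interferon response motif, searched for only in the order GAAANNGAA, was found only in B2m among the 7, from 139 to 131 bases before the start. It was in 7.13% of all windows. The letters CCTAGNNAC (a core of the X box, 3.37% of all windows) and TTCNNNGAA (a STAT motif, 7.02%) were not in the windows of these 7 members. The H2-Eb1 window holds letters that differ from CCTAGNNAC only in the first position. Variants, and other arrangements of the interferon response motif, were not searched for. The search thus does not show that these promoters lack an X box, or that H2-K1 and H2-D1 lack an interferon response element. These matches describe letters and were not tested as binding sites.

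The values are log2 RPKM, the log2 of reads per kilobase of gene and per unit of scaled library size, as deposited. The genes of the table held 15623664 to 22119327 reads in WT, 17216633 to 25184600 in TG Me-X04- and 22430251 to 27579017 in TG Me-X04+ libraries, and mitochondrial genes took 11.0 to 24.1%, 18.2 to 35.6% and 27.2 to 44.8% of these reads in the 3 groups. The libraries fell into 2 sets along the first principal component of their deviations from the group means (37.8% of the variance). Set A held WT 1 to 3 with replicates 1 and 2 of each TG sort, and set B the other 9. The study's methods name 2 sequencers without saying which library was run on which. The sets were drawn from these same values, so levels are set side by side without a test, and p-values within the sets or for dependence on them rest on that split and are no independent evidence for it. All 12 microglia markers were in the table, with a summed level of 5729 to 8555 RPKM in WT, 5177 to 9260 in TG Me-X04- and 6179 to 8956 in TG Me-X04+. In a bulk sample, fewer cells of a type and less RNA per cell cannot be told apart.

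The levels of the members spanned a wide range within the WT libraries. B2m, the light chain shared by all class I molecules, was highest, with a median of 11.07 log2 RPKM (n = 7). It was followed by H2-DMa (5.17), H2-K1 (4.72), H2-D1 (4.68), Cd74 (3.27), H2-Aa (2.39), Tap1 (2.08), H2-Ab1 (1.74), H2-Eb1 (1.53) and Ciita (-2.26). H2-K1 (4.43 to 5.33) and H2-D1 (3.99 to 4.93) overlapped across libraries, and so did the levels of H2-Aa, H2-Ab1, H2-Eb1 and Tap1, so the order among these neighbours is within their spread. The place of H2-DMa held only in set B, since in WT of set A it had 2.70 to 3.14, below H2-K1 (4.89 to 5.33) and H2-D1 (3.99 to 4.49). Ciita had 5 to 58 reads in each of the 16 libraries, and small differences in it were not detectable at this depth.

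**Figure D1:**
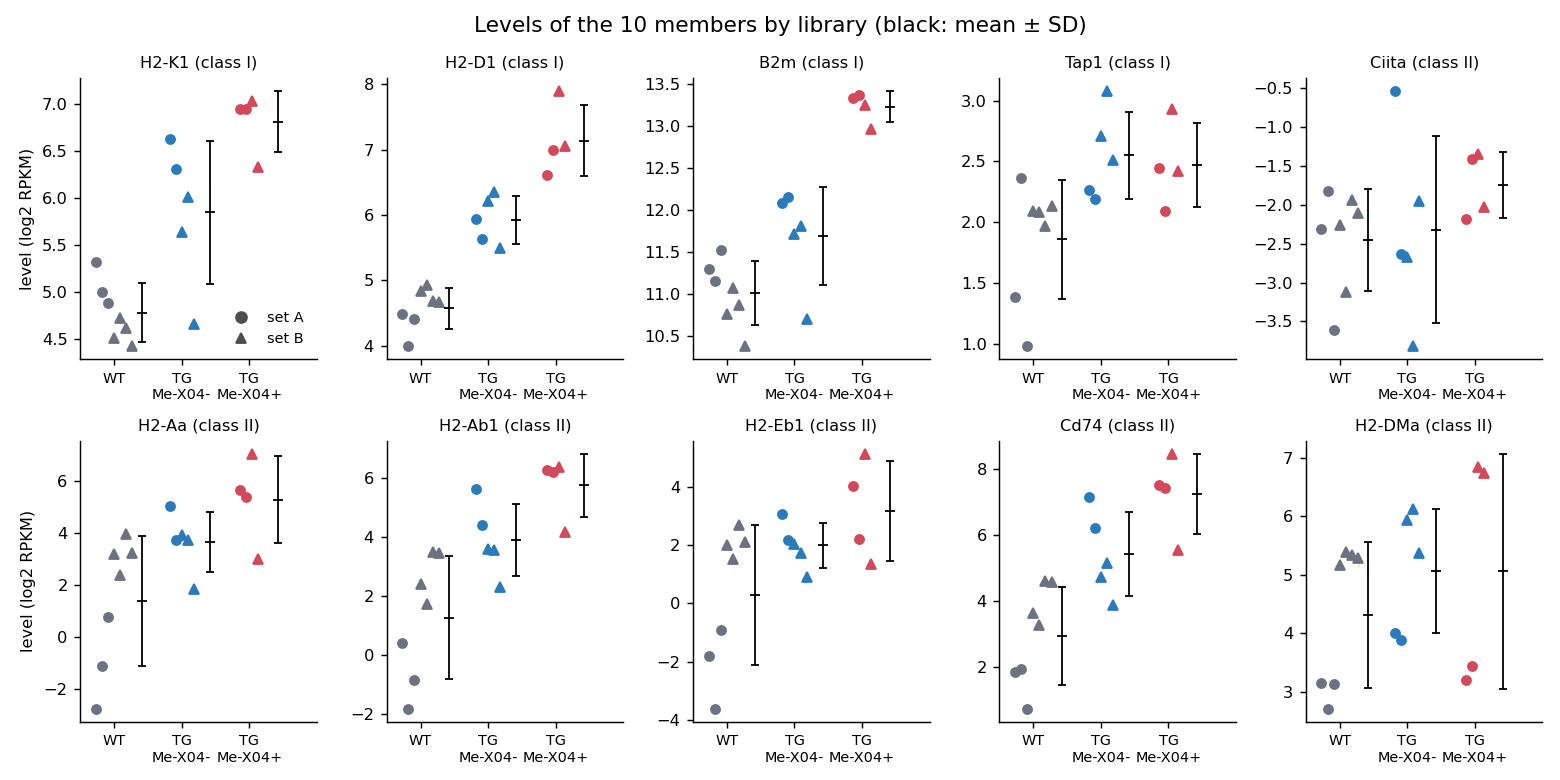
Level of each member in log2 RPKM (vertical axis, a separate scale per gene) in the 16 libraries by group, with circles for set A, triangles for set B and black bars for the mean ± SD. H2-D1 rises without overlap from WT through TG Me-X04- to TG Me-X04+, the class II chains and Cd74 are low in the 3 WT libraries of set A, and H2-DMa is lower in set A than in set B in each group.

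The first question was how the genes differed between microglia with and without the dye from transgenic mice. The main fit did not pair the libraries by mouse and included TG Me-X04- replicate 5, which has no partner. The class I genes H2-D1 and B2m were higher in the TG Me-X04+ microglia, by 2.32-fold and 2.90-fold. These are log2 fold changes of 1.21 and 1.54, against 1.10 and 1.29 in the TG pairs with the animal as a block. The peptide transporter gene Tap1 did not pass the test, and neither did any of the 6 class II genes, although 5 of them had positive fold changes of 1.49-fold to 3.63-fold. A gene was called at a limma adjusted p under 0.05 over all 17951 genes and an absolute log2 fold change of at least 0.7. On this rule 2 of the 4 class I and 0 of the 6 class II members were called higher, beside 3.44% of all genes. Of the class II members, 1 (Cd74) had an unadjusted p under 0.05, as had 3363 of all 17951 genes. Limma voom on the recovered reads also called 0 class II members. The median log2 fold change was 1.09 over the class I members, 1.40 over the class II members and -0.09 over all genes.

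H2-D1, a heavy chain, had 5.93, 5.64, 6.22, 6.35 and 5.49 log2 RPKM in TG Me-X04- replicates 1 to 5. In TG Me-X04+ replicates 1 to 4 it had 6.61, 6.99, 7.90 and 7.06. The groups did not overlap, and replicate 3 was the highest of TG Me-X04+. The log2 fold change was 1.21 (SE 0.26, limma adjusted p = 0.0117). B2m had 12.08, 12.16, 11.72, 11.82 and 10.70 log2 RPKM in TG Me-X04-, where replicate 5 stood lowest. In TG Me-X04+ it had 13.34, 13.37, 13.26 and 12.97, a narrow range above all of TG Me-X04-. Its log2 fold change was 1.54 (SE 0.42, limma adjusted p = 0.0382). H2-D1 and B2m were the 2 members whose groups did not overlap, which held with every TG Me-X04+ library higher for 4.80% of all genes.

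H2-K1, the other heavy chain, had 6.63, 6.31, 5.64, 6.01 and 4.66 log2 RPKM in TG Me-X04- and 6.95, 6.95, 7.04 and 6.34 in TG Me-X04+. Replicate 4 of TG Me-X04+ fell within the range of TG Me-X04-, and the log2 fold change of 0.97 (SE 0.32, limma adjusted p = 0.0889) was not called. Without TG Me-X04- replicate 1 it was 1.16 and was called (limma adjusted p = 0.0424, between 0.0162 and 0.550 over its 24 alternatives). Tap1 had 2.19 to 3.08 log2 RPKM in TG Me-X04- and 2.10 to 2.93 in TG Me-X04+, with a log2 fold change of -0.08 (95% interval -0.71 to 0.56).

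Among the class II genes, H2-Ab1, a β chain, had 5.63, 4.40, 3.60, 3.56 and 2.30 log2 RPKM in TG Me-X04-. In TG Me-X04+ it had 6.29, 6.19, 6.38 and 4.17. 3 of the 4 TG Me-X04+ libraries lay above all of TG Me-X04-, and replicate 4 lay within them. The log2 fold change was 1.86 (SE 0.98, limma adjusted p = 0.331). Over its 24 alternatives the limma adjusted p lay between 0.0524 and 0.562. The lowest was that of the TG pairs with the animal as a block (1.46, SE 0.35). With only the 2 TG groups in the fit the SE was 0.64 (limma adjusted p = 0.161). Cd74 had 7.15, 6.20, 4.72, 5.13 and 3.86 log2 RPKM in TG Me-X04- and 7.52, 7.42, 8.45 and 5.54 in TG Me-X04+, with a log2 fold change of 1.82 (SE 0.81, limma adjusted p = 0.230). As with H2-Ab1, replicate 4 was the only TG Me-X04+ library within the range of the other group. H2-Aa, the α chain, and H2-Eb1 had log2 fold changes of 1.61 (SE 1.17) and 1.20 (SE 1.12), and the coactivator Ciita of 0.58 (SE 0.61, 95% interval -0.71 to 1.86). The standard errors of the 3 chains and Cd74, 0.81 to 1.17, were larger than those of the 4 class I genes, 0.26 to 0.42. In this fit the standard errors draw on the spread of all 3 groups, WT included.

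**Figure D2:**
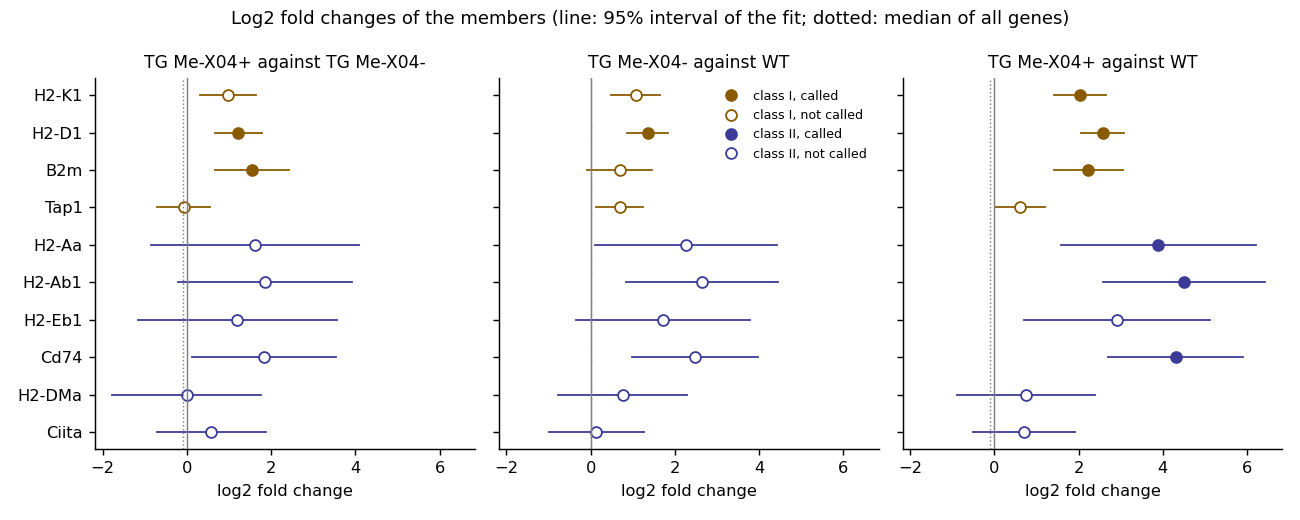
Log2 fold change of each member (horizontal axis) in the 3 comparisons, with class I in brown and class II in blue, filled where called, lines for the 95% interval of the fit and a dotted line for the median of all genes. The class II chains and Cd74 have estimates of 1.20 to 4.50 with wide intervals, and H2-D1 is the member called in all 3 comparisons.

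The calls of both class I genes depended on the scaling. With the libraries scaled by reads outside mitochondrial genes the median of all genes moved by -0.39, the log2 fold changes of H2-D1 and B2m were 0.82 and 1.14, and neither was called; after quantile normalization they were 0.55 and 0.47, also without a call. With all TG libraries and no WT in the fit the values were again 1.21 and 1.54, and neither was called, whereas in the TG pairs with the animal as a block both were (1.10 and 1.29). B2m was not called without TG Me-X04- replicate 3, 4 or 5 or without any 1 of the 4 TG Me-X04+ libraries (log2 fold changes 1.29 to 1.63), and H2-D1 was called in each of these fits.

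Within the 4 animals that gave both sorts, B2m was higher in the TG Me-X04+ library by 1.25, 1.21, 1.54 and 1.15 log2 units, so the difference varied little from animal to animal. H2-D1 was higher by 0.68, 1.35, 1.68 and 0.71. H2-K1, H2-Ab1 and Cd74 were also higher in 4 of 4 animals. How many of all genes were higher in 4 of 4 animals was not counted. For Cd74 the difference ranged from 0.37 in animal 1 to 3.74 in animal 3, and for H2-Ab1 from 0.60 in animal 4 to 2.78 in animal 3. H2-Aa was higher in 3 of 4 animals and had -0.74 in animal 4, H2-Eb1 was higher in 3 of 4, and Tap1 and H2-DMa in 2 of 4.

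**Figure D3:**
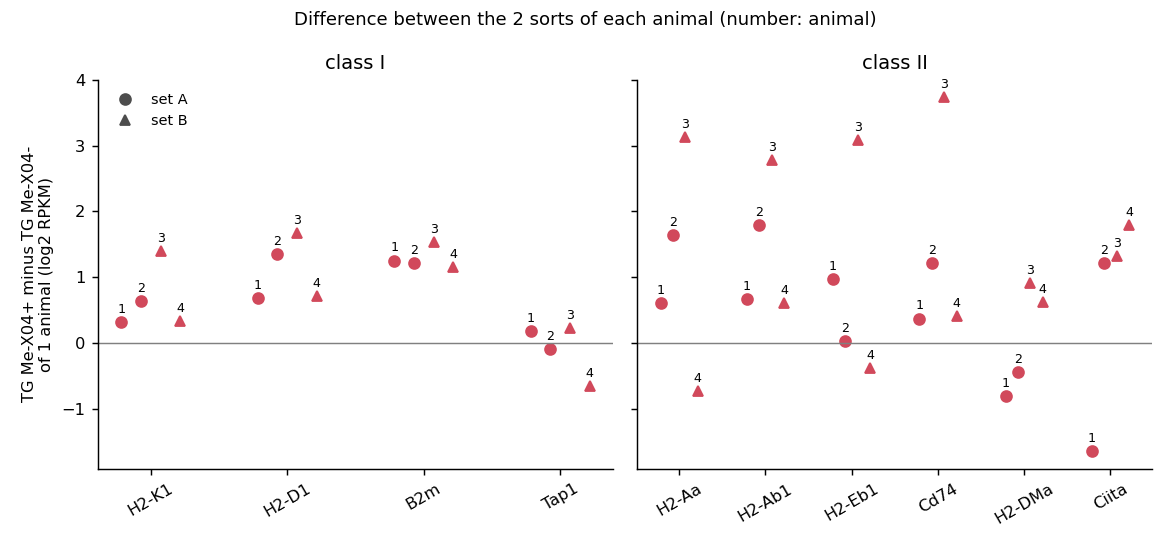
TG Me-X04+ minus TG Me-X04- level of each animal (vertical axis, log2 RPKM), numbered by animal, with circles for set A and triangles for set B. B2m lies between 1.15 and 1.54 in all 4 animals, whereas Cd74 and the class II chains range up to 3.74 in animal 3.

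The next question was how the genes differed between TG Me-X04- and WT microglia, neither of which carry the dye. H2-D1 was higher in TG Me-X04- by 2.55-fold and was called, alone among the 10 members. This was 1 of 4 class I and 0 of 6 class II members called higher, beside 0.189% of all genes. The class II chains and Cd74 had fold changes of 3.27-fold to 6.24-fold without a call. 3 class II members (H2-Aa, H2-Ab1 and Cd74) had an unadjusted p under 0.05, as had 929 of all 17951 genes. Limma voom on the recovered reads called 0 class II members. The median log2 fold change was 0.88 over the class I members, 1.99 over the class II members and 0.01 over all genes.

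H2-D1 had a lowest value of 3.99, a median of 4.68 and a highest of 4.93 log2 RPKM in WT (n = 7), all below the TG Me-X04- libraries given above (5.49 to 6.35). The log2 fold change was 1.35 (SE 0.23, limma adjusted p = 0.0144). It was the 1 member whose groups did not overlap, which held with every TG Me-X04- library higher for 0.652% of all genes. H2-K1 ranged from 4.43 to 5.33 with a median of 4.72 in WT, and 4 of the 5 TG Me-X04- libraries lay above that range. Its log2 fold change of 1.07 (SE 0.28, limma adjusted p = 0.227) was not called. B2m had 10.38, 11.07 and 11.53 as lowest, median and highest in WT and a log2 fold change of 0.69 (SE 0.36). Tap1 had 0.98, 2.08 and 2.36, with a log2 fold change of 0.69 (SE 0.26, limma adjusted p = 0.744). The call of H2-D1 was lost without TG Me-X04- replicate 1, 3 or 4 (log2 fold changes 1.25 to 1.35). Without TG Me-X04- replicate 5, the lowest of its group in H2-K1, H2-D1 and B2m, H2-K1 was called as well (log2 fold change 1.36). With library weights H2-K1 (1.04) and Tap1 (0.71) were called beside H2-D1, and H2-Aa, H2-Ab1 and Cd74 had 0.44, 0.80 and 0.97 without a call.

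The class II values of WT parted by set. H2-Aa had -2.76, -1.09 and 0.79 log2 RPKM in WT replicates 1 to 3 (set A, 3 to 47 reads) and 3.21, 2.39, 3.95 and 3.22 in replicates 4 to 7 (set B, 250 to 730 reads). H2-Ab1 had 0.39, -1.84 and -0.86 in the former and 2.41, 1.74, 3.51 and 3.46 in the latter. Cd74 had 1.84, 1.92 and 0.71 against 3.61, 3.27, 4.61 and 4.57. In each of the 3 genes all WT libraries of set A lay below all of set B. H2-Eb1 had at most 8 reads, and 0 in replicate 2, in WT of set A and at least 85 in set B. By contrast, the TG Me-X04- libraries of set A had the higher mean in all 4 genes, by 1.22 log2 units for H2-Aa, 1.86 for H2-Ab1, 1.06 for H2-Eb1 and 2.10 for Cd74, whereas WT of set A was lower by -4.21, -3.55, -4.20 and -2.52.

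A fit with a coefficient for each group in each set, chosen after the data were seen, gave the comparison within the sets. Within set A (2 TG Me-X04- against 3 WT libraries) the log2 fold changes were 5.41 (SE 1.07) for H2-Aa, 5.78 (SE 0.74) for H2-Ab1, 4.75 (SE 0.95) for H2-Eb1 and 5.18 (SE 0.69) for Cd74. All 4 were called, together with H2-DMa (0.96), H2-K1 (1.40) and H2-D1 (1.49), beside 1.43% of all genes. Within set B (3 against 4 libraries) the log2 fold changes of H2-Aa, H2-Ab1, H2-Eb1 and Cd74 were -0.02, 0.38, -0.51 and 0.56, and no member was called, beside 0.106% of all genes. There, 5 members (H2-DMa and the 4 class I genes) had an unadjusted p under 0.05, and the share of all genes at that level was not counted. The log2 fold change of H2-D1 was 1.24 in set B against 1.49 in set A, that of B2m 0.64 against 0.79 and that of Tap1 0.69 against 0.65. The test of whether the difference depended on the set did not pass for any member after adjustment, beside 0.0390% of all genes called. A lack of calls in this test is thus not particular to the members. The dependence was 5.41 (SE 0.97, limma adjusted p = 0.0653) for H2-Ab1, 4.63 (SE 0.90, limma adjusted p = 0.0829) for Cd74, 5.26 (SE 1.24, limma adjusted p = 0.182) for H2-Eb1 and 5.43 (SE 1.39, limma adjusted p = 0.205) for H2-Aa. It was at most 0.53 for the class I genes.

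**Figure D4:**
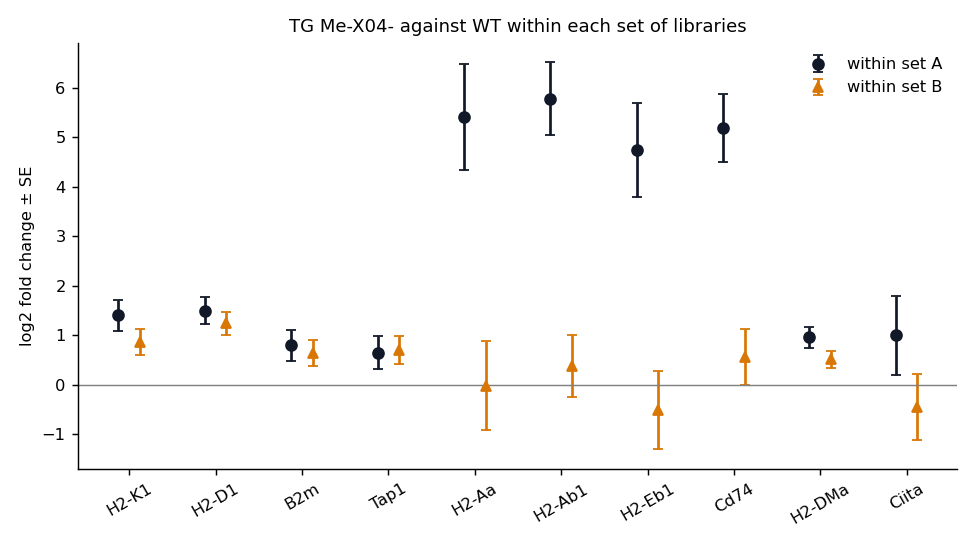
Log2 fold change of TG Me-X04- against WT (vertical axis, ± SE of the fit) of each member within set A (circles) and within set B (triangles). The 3 class II chains and Cd74 lie between 4.75 and 5.78 in set A and between -0.51 and 0.56 in set B, whereas the class I genes lie between 0.64 and 1.49 in both.

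H2-DMa, a chain of the peptide exchange factor, differed between the sets in all 3 groups. It had 2.70 to 3.14 log2 RPKM in WT of set A and 5.17 to 5.40 in WT of set B, 3.89 to 4.00 and 5.38 to 6.13 in TG Me-X04-, and 3.20 to 3.44 and 6.75 to 6.85 in TG Me-X04+. No library of set A reached the lowest of set B in any group. For TG Me-X04+ against TG Me-X04- its log2 fold change was -0.01 (SE 0.84) over all libraries, -0.62 (SE 0.23) within set A, without a call, and 0.99 (SE 0.21) within set B, where it was called. The test of that dependence gave -1.61 (SE 0.31, limma adjusted p = 0.0671), where 0.0334% of all genes were called. Within set B, Cd74 (2.43, limma adjusted p = 0.0498, between that value and 0.551 over its 24 alternatives), H2-K1 (1.25), H2-D1 (1.46) and B2m (1.70) were also called higher in TG Me-X04+ cells, beside 4.62% of all genes. Within set A only B2m (1.23) was, beside 3.49%, and H2-D1 had 1.02 (limma adjusted p = 0.0502, between 0.000499 and 0.297 over its 24 alternatives).

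TG Me-X04+ against WT, which spans both steps and shares libraries with each, showed the widest differences. H2-K1, H2-D1 and B2m were higher by 4.09-fold, 5.93-fold and 4.67-fold, and H2-Aa, H2-Ab1 and Cd74 by 14.8-fold, 22.6-fold and 19.7-fold. These were 3 of 4 class I and 3 of 6 class II members called higher, beside 8.25% of all genes. The log2 fold changes were 2.57 (SE 0.25, limma adjusted p = 3.21e-06) for H2-D1, 4.50 (SE 0.92, limma adjusted p = 0.00249) for H2-Ab1 and 4.30 (SE 0.76, limma adjusted p = 0.000787) for Cd74. H2-Eb1 (2.91, SE 1.05, limma adjusted p = 0.0730), Tap1 (0.61), Ciita (0.71) and H2-DMa (0.75) were not called. The 3 class I genes that were called, H2-Ab1 and Cd74 had every TG Me-X04+ library above every WT library, as had 6.56% of all genes. Within set A the log2 fold changes of H2-Ab1 and Cd74 were 7.01 and 5.98, among 4 class II and 3 class I members called (11.2% of all genes), and within set B they were 2.50 and 2.98, among 3 and 3 (8.24%). H2-Aa was called within set A (6.54) and not within set B (1.83), nor without TG Me-X04+ replicate 1, 2 or 3 (3.30 to 3.85) or with only the 2 groups in the fit (3.89). With library weights H2-Aa had 2.11 and was not called, and H2-Ab1 (2.79) and Cd74 (3.13) were called. B2m was not called after quantile normalization (0.99). H2-Eb1 was called without WT replicate 6 (3.31) or TG Me-X04+ replicate 4 (3.52).

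Whether a member changed more at one step than at the other was tested in the same fit, as the TG Me-X04+ against TG Me-X04- difference minus the TG Me-X04- against WT difference. Limma called 0 of the 10 members, 0 had an unadjusted p under 0.05, and voom called 0. Among all genes limma also called 0 and voom 1, so the lack of calls is not particular to the members. B2m had 0.85 (95% interval -0.58 to 2.28) and Tap1 -0.77 (95% interval -1.80 to 0.26), the widest estimates among the class I genes, and H2-Ab1 had -0.78 (95% interval -4.15 to 2.58). The call of B2m at the second step and its absence at the first are thus not shown to differ.

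The classes can be set side by side in each library as the median level over their members. In every library B2m was the highest and Tap1 the lowest of the 4 class I genes. The class I median is therefore the midpoint of H2-K1 and H2-D1 and carries nothing of B2m or Tap1. The class I median was 4.50 to 4.91 log2 RPKM in WT, 5.08 to 6.28 in TG Me-X04- and 6.70 to 7.47 in TG Me-X04+, and the 3 ranges did not overlap. The class II median was -1.46 to 3.73 in WT, 2.08 to 4.53 in TG Me-X04- and 3.59 to 6.62 in TG Me-X04+, and these ranges did. In WT it was -1.46 to -0.08 in set A and 2.07 to 3.73 in set B, while the class I median was 4.50 to 4.91 and 4.55 to 4.83. The gap between the medians, class I minus class II, was 4.72 to 5.95 in WT of set A and 0.92 to 2.76 in WT of set B. It was 1.76 to 2.99 in TG Me-X04- and 0.85 to 3.11 in TG Me-X04+. TG Me-X04+ replicate 3 had the highest median of both classes, and TG Me-X04+ replicate 4 the lowest of its group in both.

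**Figure D5:**
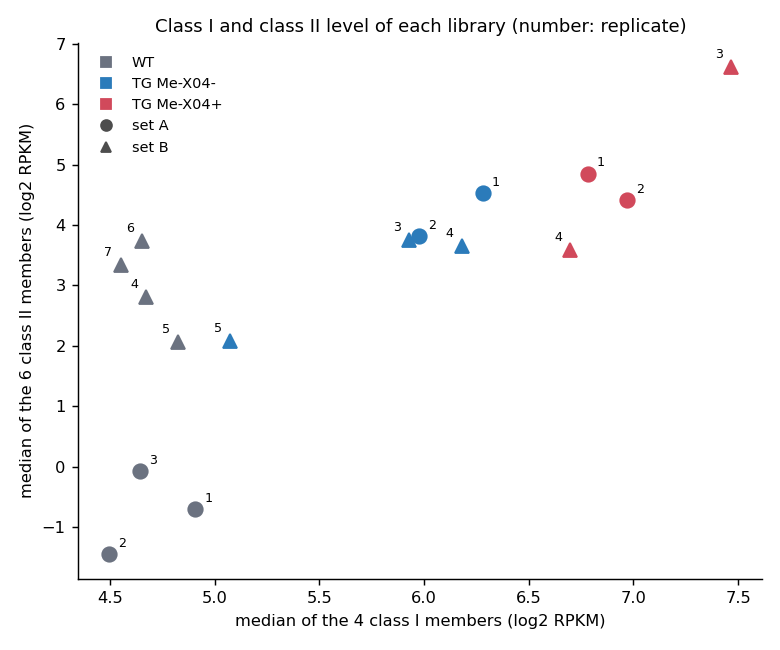
Median log2 RPKM of the 6 class II members (vertical axis) against that of the 4 class I members (horizontal axis) in each library, numbered by replicate, with circles for set A and triangles for set B. WT libraries lie between 4.50 and 4.91 for class I and split between -1.46 to -0.08 (set A) and 2.07 to 3.73 (set B) for class II, and TG Me-X04+ libraries lie at 6.70 or more for class I.

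Over the 16 libraries, which share depth and scaling and of which 4 pairs share an animal, the Pearson r between class II members ranged from -0.07 to 0.97 and that between class I members from 0.30 to 0.95. H2-Ab1 and Cd74 were the closest class II pair (0.97) and H2-K1 and B2m the closest class I pair (0.95). After the group means were taken out these pairs had 0.92 and 0.89, whereas H2-D1 and B2m fell from 0.84 to 0.001. Among 13323 genes with a mean of at least 0 log2 RPKM, the 5 most like Cd74 included Mir5107 (0.99), H2-Ab1 (0.97) and Mir5114 (0.90). Mir5107 lies within Cd74 on the same strand, and its reads cannot be told apart from those of Cd74. Those most like B2m were Rpl31-ps8, Rpl31-ps13, Gm20430, Cxcl16 and Rpl31-ps14 (0.98 each), of which all but Cxcl16 are processed pseudogenes.

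Other genes of the pathways were taken from 4 lists, of which 66 genes were in the table. In TG Me-X04+ against TG Me-X04-, limma called 6 of these 66 genes and voom 10, beside 3.44% of all genes called higher and 2.06% called lower by limma. Of 12 further class II genes in the table, limma called 1, H2-Ob, a chain of the factor that restrains H2-DM (log2 fold change 1.00, SE 0.26), and the list median was -0.09. Of 28 further class I genes, 22 had positive log2 fold changes and 1 was called, Psme1, a subunit of the proteasome activator PA28 (1.41, SE 0.30), with a median of 0.57. Of 21 regulators of MHC genes, 0 were called higher and 2 lower, Ifngr1, a chain of the interferon-γ receptor (-0.86), and Socs3, an inhibitor of cytokine signalling (-2.29). With the animal as a block in the paired TG libraries the log2 fold changes of H2-Ob and Socs3 were 0.99 and -2.23, and neither was called. Of 5 costimulatory genes, Cd274, which encodes the checkpoint ligand PD-L1 (1.80, SE 0.45), and Cd83 (1.38, SE 0.36) were called higher. For TG Me-X04- against WT limma called 0 of these 66 genes and voom called 0, beside 0.189% of all genes called higher by limma. Of the 66, 10 had an unadjusted p under 0.05, as had 929 of all 17951 genes. With TG Me-X04+ against WT, where 8.25% of all genes were called higher and 6.02% lower, 12 of the 28 class I genes were called higher and 1 lower, among them Nlrc5, the class I coactivator (2.01), and H2-Q6 (3.49), while 3 of the 12 class II genes were, H2-Oa (2.01), H2-Ob (0.96) and the invariant chain protease Ctss (1.58).

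By the study's methods the sorting gate was live CD11b+ CD45+ CX3CR1+ single cells. For other cells that can carry class II molecules, several defining markers had no row. The defining B cell genes Ms4a1 and Pax5 and the T cell genes Cd3d, Cd3e, Cd4 and Cd8a were not among the listed genes, nor were the dendritic cell genes Xcr1, Cd209a and Ccr7. The 5 dendritic cell markers in the table (of 10, Batf3 and Zbtb46 highest) summed to 6.07 to 8.19 RPKM in WT, 3.17 to 9.15 in TG Me-X04- and 3.47 to 10.8 in TG Me-X04+. The 8 border macrophage markers (of 10, Stab1 and Mrc1 highest) summed to 17.2 to 40.0, 18.9 to 29.1 and 6.97 to 25.9. In WT they summed to 17.2 to 20.1 in set A and 32.3 to 40.0 in set B, the same order as the class II chains. In TG Me-X04- they summed to 23.7 and 18.9 in set A and 26.1 to 29.1 in set B. That is the opposite of the class II chains there, whose means were higher in set A. In TG Me-X04+ the sums were 17.3 and 25.9 in set A and 6.97 and 11.6 in set B. Stab1 made up most of these WT sums (3.88 to 5.09 log2 RPKM, against 0.01 to 1.78 for Mrc1). In TG Me-X04+ replicate 3, the highest in class II, the sum was 6.97, the lowest of all. Between the TG sorts Stab1 was called lower with the dye (log2 fold change -2.15), whereas 5 of the 8 markers had positive log2 fold changes. The most reads in any TG Me-X04+ library were 249 for Lyve1 and 346 for the dendritic cell marker Clec9a, and the fewest 0 and 6. For TG Me-X04- the most were 35 and 18. The 3 B cell markers (of 8, Cd79b and Cd22 highest) summed to 1.10 to 5.01 in WT, 2.95 to 4.88 in TG Me-X04- and 3.18 to 8.48 in TG Me-X04+, and the 2 T and NK cell markers (of 10, Il7r and Lck) to 10.5 to 29.3, 8.23 to 19.3 and 1.71 to 3.00. The 4 monocyte and neutrophil markers summed to 69.6 to 120.1, 56.0 to 131.4 and 78.9 to 171.5. The class II members themselves summed to 11.4 to 98.7, 66.8 to 249.9 and 183.1 to 717.4 RPKM. Of the microglia markers, Tmem119 was called lower in the TG Me-X04+ cells (-1.58), and P2ry12 and P2ry13 as well against WT. The part of other cells, of the mitochondrial share and of the sets in these results was not tested.

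Some of the members resemble other genes in sequence. Of the 50-base words of their transcripts in the Gencode annotation at hand, 12.8% for H2-D1 and 9.63% for H2-K1 also occurred in transcripts of other genes, most of them other class I heavy chains. For H2-DMa it was 8.43%, shared with Brd2, and for Tap1 3.33%, most of it with Psmb9. B2m, Cd74, H2-Ab1 and H2-Eb1 shared none. The aligner kept reads with up to 10 positions, and whether reads were counted by strand is not given in the sources used here, so the values of H2-K1, H2-D1 and H2-DMa carry that uncertainty.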

How the data were processed

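The authors trimmed reads with Trim Galore 0.4.4, aligned them to GRCm38 with STAR 2.5.4b, counted them per gene with featureCounts, dropped lowly expressed genes and scaled the libraries by TMM with edgeR 3.24.3. They deposited log2 RPKM values for 17951 genes, gene lengths, and columns of their own comparisons (log2 fold changes, p-values, scores), which were not used. A prior of 2 reads at the mean library size is part of the values and understates changes of genes with few reads. Whole reads were recovered from the spacing of low values, and 100% of the values were whole within 0.01. These reads served for depth and for an alternative.

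The deposited log2 values were fitted gene by gene in R 4.3.3 with limma 3.58.1, with 3 group means, no covariate and moderated variances that follow the mean level (eBayes with trend). Two-sided p-values were adjusted by Benjamini-Hochberg over all genes. A call needed an adjusted p under 0.05 together with a log2 fold change of 0.7 or more in size. The study's methods name a quasi-likelihood count test with these thresholds, which log2 values do not take. Tested on simulated data for TG Me-X04+ against TG Me-X04- over 17951 genes, the fit found 167 of the 200 genes given a log2 change of 1.5, each with its true sign, and called 17 unchanged ones. This is an average over those genes. It does not give the rate for the class II chains and Cd74, whose standard errors were 0.81 to 1.17. The labels do not say more of the replicates than their animal labels. Named beside the members were list genes called in either step, and the 5 genes most correlated with Cd74 and with B2m, some of which are not reported here. Nlrc5, H2-Q6, H2-Oa and Ctss were named after their values were seen. The members and lists were chosen with earlier results of these data known.

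Alternatives were other variance models, library weights, quantile normalization, scaling by reads outside mitochondrial genes, pseudocounts of 0.1 and 1, a filter at a mean of 0, voom, only the 2 groups compared, a set term, the replicate block, and each library left out. The fit within sets was added after seeing the data. The numbers pair TG libraries, since these share animal labels, whereas same-numbered WT mice are other animals. Between the 2 TG sorts, the r of deviations was 0.29 to 0.33 for the same number. It was 0.22 to 0.33 for other numbers in the same set, so r does not show the pairing, which rests on the labels. Promoter windows are RefSeq on GRCm38.p6. Figures used matplotlib 3.10.9 in Python 3.11.15.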

Additional observations from a re-analysis of the deposited data

Results flagged for a closer look

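Of 30 tests of a member's values within a group for a library far from the others (Dixon's test, groups of 4 to 10), 2 were positive, both in TG Me-X04+ replicate 4. Chance flags about 1 in 20 groups. H2-Ab1 had 4.17 log2 RPKM there, against 6.19 to 6.38 in the other 3 libraries. H2-K1 had 6.34 there, against 6.95 to 7.04. Without that library the log2 fold change of TG Me-X04+ against TG Me-X04- was 2.39 for H2-Ab1 and 1.13 for H2-K1, neither of them called.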

How the results depend on the processing

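Of 172 recomputed counts of called members, 149 equalled the main count or stayed within 1.5 times of it, so that 2 against 3 counts as kept. The 172 include those for the difference between the 2 steps, which were 0 throughout. For TG Me-X04+ against TG Me-X04-, the class I count of 2 fell to 0 after quantile normalization, with scaling by reads outside mitochondrial genes and with only the 2 groups compared, and to 1 within set A; leaving out 1 library gave 1 to 3. The class II count of 0 became 2 within set B. Among all genes the number called higher was 617 in the main fit and 421 with quantile normalization. It was 250 with the mitochondrial reads out of the scaling, 347 with 2 groups only, 627 within set A and 829 within set B. For TG Me-X04- against WT, the class I count of 1 became 3 with library weights and 2 with a set term. It became 2 within set A, 0 within set B and 0 to 2 without 1 library. The class II count of 0 became 5 within set A. Among all genes the number called higher went from 34 to 143 with library weights, 81 with a set term, 256 within set A and 19 within set B. The gains with library weights, with a set term and within set A thus came with more calls among all genes. For TG Me-X04+ against WT, the class II count of 3 became 5 with a set term. There the number called higher among all genes went from 1481 to 2139. WT and TG libraries of 1 number share only that number; with a replicate block the class I count of TG Me-X04- against WT was 0 (H2-D1 1.40), and no other count of called members moved by over 1.5 times. In the TG pairs alone, with the animal as a block, 2 class I and 0 class II members were called. H2-Ab1 came close there (1.46, limma adjusted p = 0.0524).

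For TG Me-X04+ against TG Me-X04-, the log2 fold change of H2-DMa (-0.01) turned positive with library weights (0.46), log2(RPKM + 1) (0.018), the replicate block (0.22, and 0.071 in TG pairs only), a set term (0.24), voom (0.082) and within set B (0.99), and ranged from -0.60 to 0.61 without 1 library. Tap1 turned to 0.043 within set A and ranged from -0.23 to 0.054 without 1 library, and Ciita turned to -0.22 within set A. Between TG Me-X04- and WT, H2-Eb1 turned to -0.13 with library weights and -0.51 within set B, H2-Aa to -0.020 within set B, and Ciita to -0.49 with library weights, -0.17 after quantile normalization and -0.46 within set B, with -0.31 to 0.50 without 1 library. The cause of these changes was not tested. Ciita did not pass the filter on low values. The limits are 4 to 7 libraries per group, sets that cannot be assigned to a sequencer, and few reads on Ciita and on the class II chains of WT in set A.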
